A study of Mus musculus with 8 samples.

Results

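Cholesterol is made from acetyl-CoA by the mevalonate pathway, taken up with lipoproteins, moved between membranes, stored as esters and exported. The 27 genes described here are 20 synthesis enzymes and 7 genes of cholesterol transport, storage, export and receptor turnover, out of 21759 genes measured. Ggps1, counted among the enzymes, makes a product for protein prenylation. The 27 genes were chosen by their known roles, with earlier results of these data known, and found by symbol in the annotated table. Msmo1 is listed there under its older symbol Sc4mol and is called Sc4mol below. Where a symbol had several rows, the row of highest mean over all arrays was used. This touched Idi1 and Fdft1, while the other 25 genes had a single row each.

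RNA came from whole brown adipose tissue, fat specialised for making heat, taken from male C57BL/6 mice. The 8 arrays were of the Affymetrix Mouse Gene 1.0 ST type, which gives 1 value per transcript cluster, a group of probes placed along a gene. There were 4 arrays from mice labelled NCD, an abbreviation the labels do not spell out, and 4 from mice labelled HFD, for high-fat diet. All mice of both groups carry the same sex and strain labels. The sources used here do not give their age, the feeding period or whether an array is 1 animal or a pool, so p-values reflect only how these samples vary, which may be technical. The title sets the question: what the high-fat diet does to gene expression in this tissue.

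Synthesis enzymes act in a chain: the early steps build mevalonate and turn it into a reactive isoprene unit, prenyl transferases join these units into farnesyl and geranylgeranyl diphosphate, and squalene is folded into lanosterol, the first sterol. Later enzymes strip methyl groups from lanosterol and move or reduce its double bonds. In mammalian cells the genes of this chain are well known as targets of SREBP transcription factors, which are held back in the endoplasmic reticulum by INSIG proteins when sterols are plentiful. The exporters Abca1 and Abcg1, and Mylip, which acts on lipoprotein receptors, are known targets of the oxysterol-sensing liver X receptors.

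The tissue label held on each array for the defining markers of brown fat. Ucp1, the uncoupling protein of brown adipocytes, lay between 12.79 and 12.95 on the log2 scale, where the highest value of any gene was 13.79, and Cox8b, a brown fat cytochrome oxidase subunit, between 12.23 and 12.46. Array medians over genes ran from 5.85 to 5.94. The standard deviation over genes lay between 1.59 and 1.73, with NCD 3 (1.73), NCD 2 (1.69) and HFD 4 (1.68) at the upper end. Skeletal muscle markers were high on NCD 1 (10-gene mean 8.96) and HFD 3 (9.60) and between 5.20 and 5.76 on the other 6 arrays. Medians over the 27 genes and over the related genes, and differences of named genes among them that moved by over 1.5 times, are also given without NCD 2 and NCD 3.

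Most synthesis genes had lower values in HFD arrays, by modest amounts, and none of the 27 genes passed the test over all genes. The median difference, HFD minus NCD, was -0.25 on the log2 scale over the 27 genes and -0.35 over the 20 enzymes, against -0.01 over all genes. HFD means were lower for 17 of the 20 enzymes, higher for Mvk and Ebp and equal for Lbr, where 52.5% of all genes had a lower and 46.7% a higher mean. Of the 7 other genes, 3 had lower and 4 had higher means, with a median of 0.015.

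With limma's moderated test and Benjamini-Hochberg adjustment over all genes, 0 of 27 genes were past an adjusted p of 0.05 in either direction, where 0.142% of all genes were (31 in all, 0.133% of genes as lower and 0.00919% as higher). The smallest adjusted p was 0.0552, for Nsdhl. At an unadjusted p under 0.05 there were 14 of the 27 genes lower in HFD, against 4.52% of all genes, and 1 higher, Mylip, against 2.73%. Of the 14, 13 were synthesis enzymes and the other was Npc2. For 6 genes (Hmgcs1, Pmvk, Idi1, Nsdhl, Sc5d and Npc2) every HFD array lay below every NCD array, which occurred for 2.5% of all genes. The reverse order was seen for 0 of the 27 and for 1.33% of all genes. Genes of 1 pathway share regulators and were measured on the same arrays, so they are not independent observations of the diet. They were also chosen with earlier results of these data known, so the counts beside shares of all genes are description only.

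**Figure D1:**
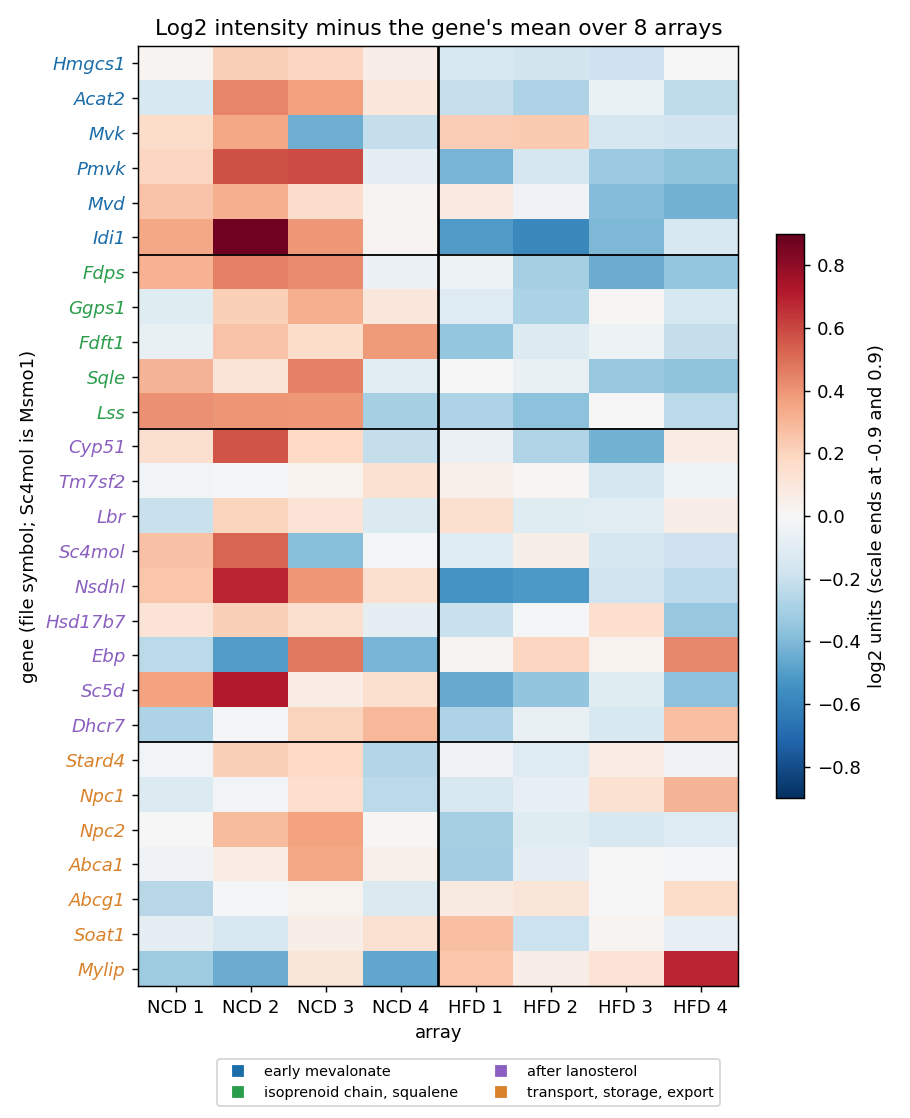
Log2 intensity of the 27 genes (rows, coloured by role) on the 8 arrays (columns), each minus the gene's own mean over 8 arrays; red is above that mean and blue below. The upper 3 blocks, the synthesis enzymes, are mostly red in NCD columns, most strongly NCD 2, and mostly blue in HFD columns, while the lowest block is mixed.

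Most differences were closer to 0 without NCD 2 and NCD 3, NCD arrays of wide spread on which many of these genes stood highest. Among the NCD arrays NCD 2 held the highest value for 13 of the 27 genes and NCD 3 for 9, and NCD 4 held the lowest for 12. Without NCD 2 and NCD 3 the median over the 27 genes was -0.14 and over the 20 enzymes -0.20, with all genes at -0.015, and over the 7 other genes 0.115. Means were still lower for 17 of the 20 enzymes and 3 of the 7 others, where 53.7% of all genes were lower. The number of the 27 genes lower at an unadjusted p under 0.05 was 6 instead of 14, with 2 fewer arrays in the fit, where 3.62% of all genes were, and 3 (Ebp, Abcg1 and Mylip) instead of 1 were higher, against 3.28%. Of the 27 genes, 18 had a difference closer to 0 without these arrays. Leaving out NCD arrays on which these genes stood highest lowers the NCD means whatever the reason for the high values. HFD 4, of similar spread (1.68), was kept, and the NCD arrays left were NCD 1, high in muscle markers, and NCD 4. Whether the wide spread of these arrays has a part in the differences was not tested.

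**Figure D2:**
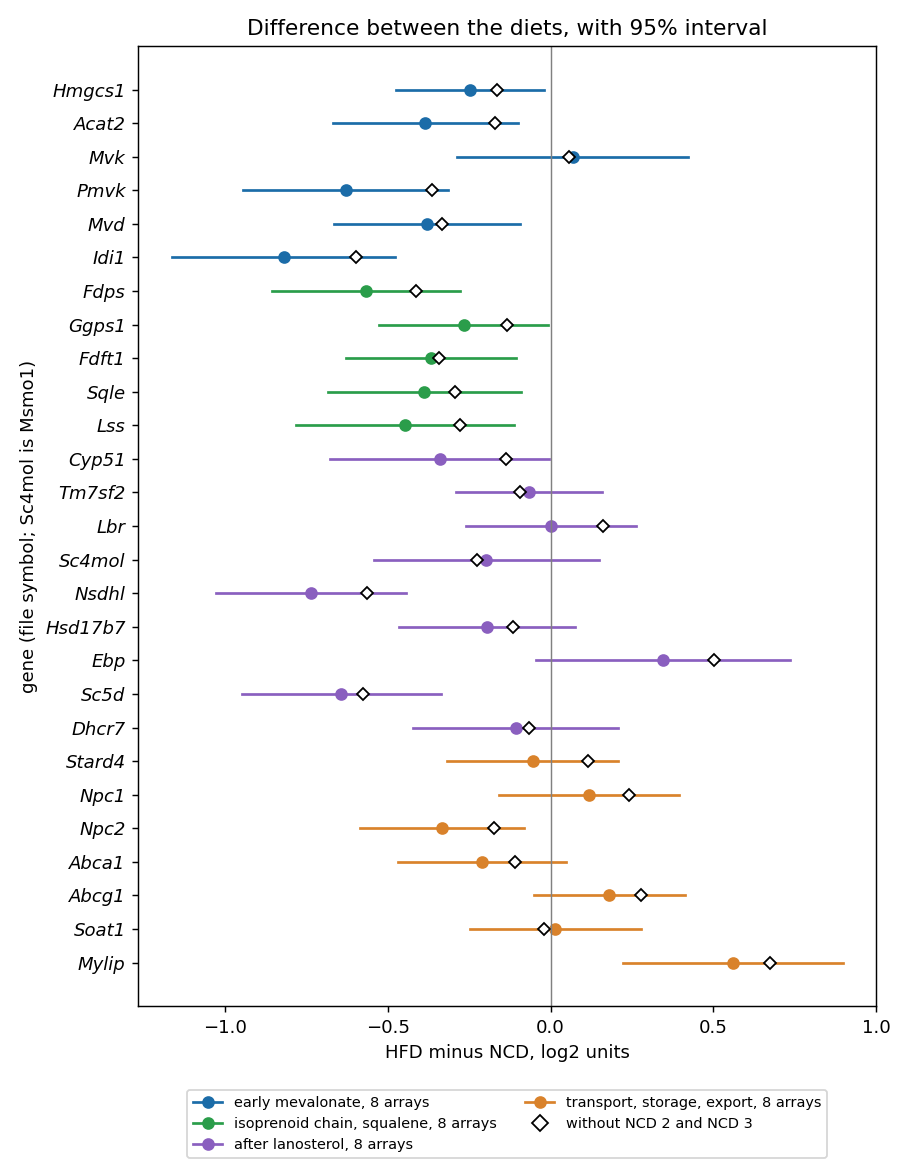
Difference between the diets (HFD minus NCD, log2 units) for each of the 27 genes, as filled circles with 95% intervals from limma over 8 arrays, and as open diamonds without NCD 2 and NCD 3. Idi1 (-0.82), Nsdhl (-0.735) and Sc5d (-0.64) lie furthest to the left and Mylip (0.56) furthest to the right; most diamonds of the synthesis enzymes lie between the circle and 0.

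The early mevalonate enzymes were lower in HFD for 5 of 6 members, where 52.5% of all genes were. For 3 of them the groups did not overlap, which occurred in this direction for 2.5% of all genes. Hmgcs1, the cytosolic synthase that makes HMG-CoA, read 9.43, 9.62, 9.60 and 9.46 on NCD 1 to 4 and 9.26, 9.24, 9.22 and 9.40 on HFD 1 to 4. The groups were separate by a margin of 0.03, between HFD 4 and NCD 1, and the difference was small: -0.25 ± 0.11 (SE), a 1.19-fold lower level (adjusted p = 0.653). Acat2, the cytosolic thiolase that makes acetoacetyl-CoA ahead of that step, read 7.79, 8.37, 8.30 and 8.02 in NCD and 7.72, 7.65, 7.87 and 7.70 in HFD. Here NCD 1 lay within the HFD range, and the difference was -0.385 ± 0.13 (SE, adjusted p = 0.514), or -0.17 without NCD 2 and NCD 3, its highest arrays (adjusted p = 0.869).

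Of the kinases and the decarboxylase that follow mevalonate, Pmvk and Mvd had lower HFD means and Mvk had no clear direction. Mvk, mevalonate kinase, averaged 6.11 ± 0.36 in NCD and 6.175 ± 0.23 in HFD (SD, n = 4 each), and its 95% interval ran from -0.29 to 0.42 (adjusted p = 0.961). Its difference, 0.0675, was -0.0683 without NCD 3. Pmvk, the kinase of the next step, read 6.13, 6.51, 6.53 and 5.85 in NCD and 5.52, 5.79, 5.61 and 5.58 in HFD. All its HFD arrays were lower than all NCD arrays, by a margin of 0.06 between NCD 4 and HFD 2. The difference of the means was -0.63 ± 0.15 (SE, adjusted p = 0.166). Without NCD 2 and NCD 3, its highest arrays, the Pmvk difference was -0.365 (adjusted p = 0.614), and without NCD 4, its lowest, it was -0.765 and past the threshold (adjusted p = 0.0376). Mvd, which makes isopentenyl diphosphate, read 5.77, 5.83, 5.67 and 5.54 in NCD and 5.60, 5.48, 5.12 and 5.09 in HFD, with HFD 1 inside the NCD range and a difference of -0.38 ± 0.13 (SE, adjusted p = 0.524).

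Idi1, the isomerase that turns isopentenyl diphosphate into the dimethylallyl form with which chain building starts, had the largest difference of the 27 genes. Its log2 level was 6.77, 7.30, 6.81 and 6.45 on NCD arrays and 5.91, 5.84, 6.02 and 6.28 on HFD arrays. No values overlapped, and HFD 4 came closest to the NCD group. The difference was -0.82 ± 0.16 (SE), a 1.77-fold lower level (adjusted p = 0.0753). It was past the threshold under 3 of 20 alternative settings, 1 of them without NCD 4 (-0.95, adjusted p = 0.0266), and it was -0.60 without NCD 2 and NCD 3 (adjusted p = 0.365). The chosen row is placed on chromosome 2 (53553379 to 53555893) in the file, whose build is not named, while RefSeq has Idi1 on chromosome 13. Whether the chosen row measures Idi1 is therefore uncertain. A dimmer Idi1 row on chromosome 13 (8885116 to 8889881) read 6.35, 6.56, 6.16 and 5.93 in NCD and 5.11, 5.11, 5.52 and 5.70 in HFD. That row was separated in the same direction, with a difference of -0.89 ± 0.16 (SE, adjusted p = 0.0841 over all 25254 rows). Its means, 6.25 in NCD and 5.36 in HFD, were both under 6.46, the 95th percentile of olfactory receptor genes described below. The size of that difference is uncertain for this reason.

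The arrays measured no promoter, and the windows below are reference sequence from RefSeq, build GRCm38.p6. They are shown because Hmgcs1, Idi1 and Nsdhl were separated between the diets with lower HFD values, and because Mylip had the largest difference the other way. Each run is the 250 bases before the gene's start, read 5′ to 3′ on the gene's strand. The positions are chr13:119690101-119690350 for Hmgcs1, chr13:8885356-8885605 for Idi1, chrX:72918271-72918520 for Nsdhl and chr13:45389492-45389741 for Mylip, all on the plus strand. Capitals mark CCAAT or its reverse complement ATTGG, the box bound by NF-Y, and in Hmgcs1 also the sterol regulatory element core TCACNCCAC, a motif known for SREBP.
Hmgcs1: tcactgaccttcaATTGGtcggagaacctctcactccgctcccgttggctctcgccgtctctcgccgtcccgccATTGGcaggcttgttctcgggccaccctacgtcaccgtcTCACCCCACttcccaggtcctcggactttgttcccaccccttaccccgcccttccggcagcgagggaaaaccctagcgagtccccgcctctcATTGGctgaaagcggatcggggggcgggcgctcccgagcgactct
Idi1: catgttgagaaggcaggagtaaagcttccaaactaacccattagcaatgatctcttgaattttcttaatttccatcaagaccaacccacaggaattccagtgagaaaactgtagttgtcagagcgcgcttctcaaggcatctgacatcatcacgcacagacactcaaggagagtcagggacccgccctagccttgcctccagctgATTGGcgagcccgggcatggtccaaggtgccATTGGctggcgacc
Nsdhl: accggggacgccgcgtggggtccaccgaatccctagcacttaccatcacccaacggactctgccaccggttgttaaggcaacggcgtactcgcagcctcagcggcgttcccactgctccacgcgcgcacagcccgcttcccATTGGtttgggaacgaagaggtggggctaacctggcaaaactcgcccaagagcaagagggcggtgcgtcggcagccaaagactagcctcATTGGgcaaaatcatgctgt
Mylip: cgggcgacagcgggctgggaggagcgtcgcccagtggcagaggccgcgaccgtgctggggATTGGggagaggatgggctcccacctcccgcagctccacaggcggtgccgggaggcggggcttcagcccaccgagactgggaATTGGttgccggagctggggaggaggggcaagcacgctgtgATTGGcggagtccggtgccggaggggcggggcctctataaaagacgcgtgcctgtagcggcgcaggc

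The motifs were counted on both strands in windows of 300 bases, from 250 before to 50 after the start, for the 21 of 27 genes that had a window. Fdps, Fdft1, Sqle, Stard4, Npc1 and Abcg1 had none. CCAAT was present for 16 of 17 synthesis enzymes, all but Acat2, and for 3 of the 4 other genes (Npc2, Soat1 and Mylip, not Abca1). It was present in 37.4% of all 32851 windows and for 42.2% of the tested genes that had a window. GGGCGG, known for Sp1, was present for 15 of the 17 enzymes and all 4 others, against 35.7% of windows and 52.7% of tested genes. The sterol element core was found in Hmgcs1 and in no other of the 21, against 1.24% of windows and 1.45% of tested genes. Sterol elements of other letters, or outside the windows, were not searched for. An AGGTCA repeat with 4 bases between the repeats was found in 0 of the 21, in 0.0152% of windows and for 0.00697% of tested genes. In these windows 0 matches of 1 motif shared bases with a match of another. A match is a match of letters only. The synthesis enzymes with CCAAT had lower HFD means, apart from Mvk (difference 0.0675), Ebp (0.345) and Lbr (equal means). Acat2 (-0.385), without CCAAT, had a lower mean too. Of the other genes with CCAAT, Npc2 had a lower mean and Soat1 and Mylip had higher ones. None of these differences passed the threshold, and whether matches go with the differences was not tested.

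All 5 enzymes of isoprenoid chain building and the squalene steps had lower HFD means, and none passed the adjusted threshold. Each had an unadjusted limma p under 0.05, where 4.52% of all genes had one and were lower. Without NCD 2 and NCD 3, 2 of the 5 did, against 3.62% of all genes, with 2 fewer arrays in the fit. Fdps, which joins isoprene units into farnesyl diphosphate, read 7.30, 7.44, 7.41 and 6.93 in NCD and 6.94, 6.69, 6.54 and 6.64 in HFD. NCD 4 lay just under HFD 1, and the other NCD arrays were all above the HFD range. The difference was -0.57 ± 0.135 (SE), a 1.48-fold lower level (adjusted p = 0.178). Ggps1, which makes geranylgeranyl diphosphate for protein prenylation, averaged 7.74 ± 0.18 in NCD and 7.47 ± 0.12 in HFD (SD, n = 4 each), with overlapping arrays (difference -0.27, adjusted p = 0.67). The Ggps1 difference was -0.13 without NCD 2 and NCD 3 (adjusted p = 0.909).

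Squalene synthesis and closure showed the same direction, with overlap between the diets. Fdft1, squalene synthase, read 8.91, 9.23, 9.14 and 9.36 in NCD and 8.63, 8.85, 8.93 and 8.76 in HFD; NCD 1 lay within the HFD range and the difference was -0.37 ± 0.12 (SE, adjusted p = 0.485). A second Fdft1 row lies elsewhere on chromosome 14, from 19363877 to 19364974 on the plus strand. The chosen row spans 63763987 to 63796630 on the minus strand, so whether the second row measures the same gene is uncertain. The second row did not overlap between groups, with 8.45 the lowest NCD and 8.35 the highest HFD value. Its difference was -0.40 ± 0.11 (SE, adjusted p = 0.372 over all rows). Sqle, squalene epoxidase, read 6.84, 6.65, 6.99 and 6.43 in NCD and 6.53, 6.47, 6.19 and 6.17 in HFD. NCD 4 was lower than HFD 1 and HFD 2, and the difference was -0.39 ± 0.14 (SE, adjusted p = 0.537).

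Lss, the cyclase that closes squalene epoxide into lanosterol, read 6.52, 6.51 and 6.50 on NCD 1 to 3 and 5.81 on NCD 4. Its HFD arrays read 5.83, 5.74, 6.11 and 5.87, so that NCD 4 lay among them and the other NCD arrays above. The difference was -0.45 ± 0.16 (SE, adjusted p = 0.52) with all arrays and -0.62 without NCD 4 (adjusted p = 0.0769), while without NCD 2 and NCD 3 it was -0.28 (adjusted p = 0.84).

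**Figure D3:**
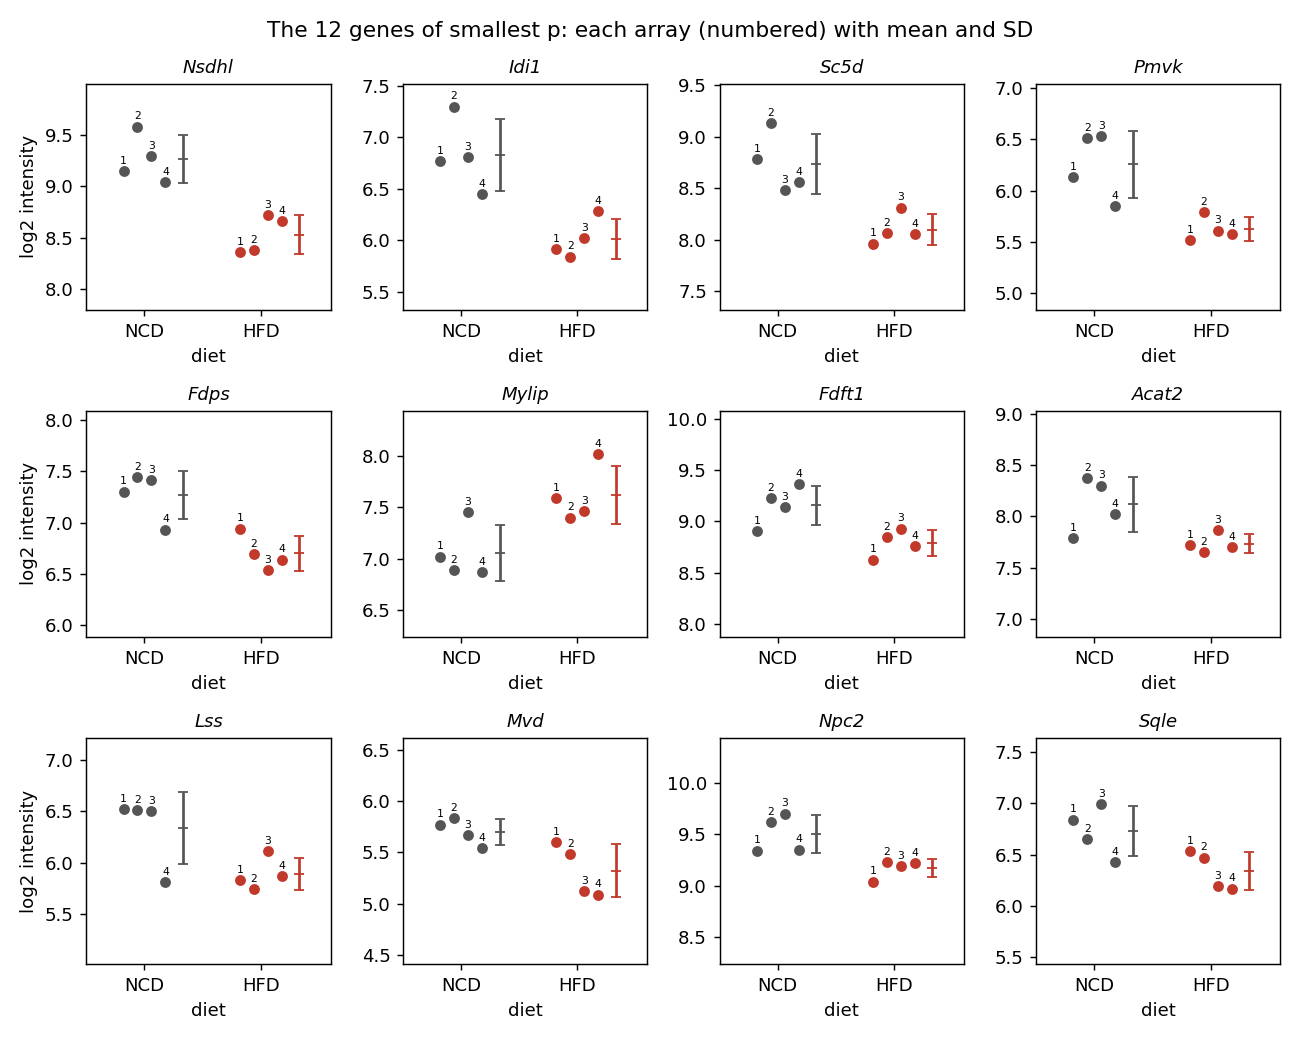
Log2 intensity on every array for the 12 of the 27 genes with the smallest p, NCD in grey and HFD in red, with the array number over each point and the mean and SD (n = 4) beside it; each panel spans 2.2 log2 units. Nsdhl, Idi1, Sc5d, Pmvk and Npc2 show no overlap between diets, and in Mylip the HFD points lie above all NCD points but NCD 3.

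Among the 9 enzymes after lanosterol, Nsdhl and Sc5d stood apart from the rest. Nsdhl, the dehydrogenase that takes part in removing methyl groups from the sterol ring, read 9.15, 9.58, 9.29 and 9.04 in NCD and 8.36, 8.38, 8.72 and 8.66 in HFD. The lowest NCD array was 0.32 above the highest HFD array. The difference was -0.735 ± 0.14 (SE), a 1.66-fold lower level, with a 95% interval from -1.03 to -0.44 and an adjusted p of 0.0552. Nsdhl was past the threshold under 8 of 20 alternative settings, with adjusted p from 0.00941 to 0.437 over all 20 and differences from -0.84 to -0.565. Among the fits that left out 1 array it passed in those lacking NCD 4 (adjusted p = 0.0384) and HFD 3 (adjusted p = 0.0479). In the file the gene lies on chromosome X from 70163860 to 70203867, a span over the whole gene.

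Sc5d, the desaturase that adds a double bond to the sterol ring late in the pathway, read 8.78, 9.13, 8.48 and 8.56 in NCD and 7.96, 8.06, 8.31 and 8.05 in HFD. These groups did not overlap, with HFD 3 closest to NCD 3, and the difference was -0.64 ± 0.14 (SE, adjusted p = 0.135). Without NCD 2 and NCD 3 its difference was -0.575 (adjusted p = 0.291). The file places it on chromosome 9 from 42062260 to 42072339.

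The remaining 7 enzymes of this stretch had smaller or no differences. Cyp51, the lanosterol demethylase that acts first, differed by -0.34 ± 0.16 (SE, adjusted p = 0.679), with its highest value, 7.06, on NCD 2. Without NCD 2 and NCD 3 that difference was -0.14. Sc4mol, a methylsterol monooxygenase, differed by -0.1975 and Hsd17b7, a ketoreductase that works with it, by -0.195; HFD values lay within the NCD range for 4 of 4 arrays in the former and for 2 of 4 in the latter. The ring reductases Tm7sf2 and Lbr, the latter also a nuclear envelope protein that binds lamin, differed by -0.07 and 0.00, with 95% intervals from -0.29 to 0.16 and from -0.26 to 0.26. Hsd17b7 differed by -0.115 and Lbr by 0.16 without NCD 2 and NCD 3.

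Ebp, the isomerase that shifts the ring double bond, went the other way from its neighbours in the pathway, with 5.32, 5.06, 6.04 and 5.15 in NCD and 5.59, 5.76, 5.60 and 6.00 in HFD. NCD 3 was the highest of the 8 arrays and the other NCD arrays were the lowest 3, so the interval of the difference, from -0.045 to 0.735, included 0 (adjusted p = 0.734). Dhcr7, the reductase of the final step to cholesterol, averaged 6.67 ± 0.26 in NCD and 6.565 ± 0.23 in HFD (SD, n = 4 each) and overlapped throughout (95% interval -0.42 to 0.21; -0.065 without NCD 2 and NCD 3).

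Transport and storage genes did not share the direction of the synthesis enzymes as a group. Npc2, the soluble lysosomal protein that hands cholesterol to the membrane, read 9.34, 9.62, 9.70 and 9.35 in NCD and 9.04, 9.23, 9.19 and 9.22 in HFD. The groups were separate by 0.11, and the difference was -0.33 ± 0.12 (SE, adjusted p = 0.531), or -0.175 without NCD 2 and NCD 3, its highest arrays (adjusted p = 0.848). Npc1, the membrane protein that receives that cholesterol, read 8.21, 8.31, 8.48 and 8.09 in NCD and 8.19, 8.26, 8.47 and 8.64 in HFD, with full overlap apart from HFD 4 and a difference of 0.12 ± 0.13 (SE, adjusted p = 0.894), or 0.24 without NCD 2 and NCD 3. These partners in lysosomal export thus had means that differed in opposite directions, neither past the threshold; the contrast between them was not tested. Stard4, a carrier of cholesterol between membranes, differed by -0.055 (95% interval -0.32 to 0.21), and by 0.115 without NCD 2 and NCD 3.

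Soat1, which esterifies cholesterol for storage, read 6.34, 6.28, 6.48 and 6.56 in NCD and 6.69, 6.23, 6.45 and 6.35 in HFD. HFD 1 was the highest and HFD 2 the lowest of the 8 arrays, and the difference was 0.015 ± 0.12 (SE, adjusted p = 0.990), or -0.02 without NCD 2 and NCD 3.

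The exporters Abca1 and Abcg1, both transporters that pass cholesterol to lipoproteins outside the cell, had differences of opposite sign. Abca1 read 7.60, 7.70, 7.98 and 7.68 in NCD and 7.32, 7.55, 7.63 and 7.62 in HFD. HFD 3 and HFD 4 lay just above NCD 1 and under the other NCD arrays, and the difference was -0.21 ± 0.12 (SE, adjusted p = 0.771). Abcg1 read 5.97, 6.20, 6.25 and 6.09 in NCD and 6.30, 6.33, 6.22 and 6.38 in HFD. HFD 3 lay under the highest NCD array and the other 3 HFD arrays lay above it; the difference was 0.18 ± 0.11 (SE, adjusted p = 0.787). Leaving out NCD 2 and NCD 3 gave -0.11 for Abca1 and 0.28 for Abcg1.

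Mylip, also called Idol, a ubiquitin ligase that sends lipoprotein receptors to degradation, had the largest higher value in HFD of the 27 genes. It read 7.02, 6.89, 7.45 and 6.87 on NCD arrays and 7.59, 7.40, 7.46 and 8.02 on HFD arrays. NCD 3 was above HFD 2 and just under HFD 3, and HFD 4 was the highest by 0.43. The difference was 0.56 ± 0.16 (SE), a 1.47-fold higher level (adjusted p = 0.32). Without NCD 2 and NCD 3 it was 0.67 (adjusted p = 0.359), and it ranged from 0.43 to 0.69 when arrays were left out singly. Mylip lies on chromosome 13 from 45485111 to 45507328 in the file.

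By array, the mean of the synthesis enzymes was higher on every NCD array than on any HFD array, while that of the other genes overlapped. The mean over the 20 enzymes was 7.016, 7.24, 7.12 and 6.90 on NCD 1 to 4 and 6.75, 6.75, 6.74 and 6.76 on HFD 1 to 4. NCD arrays thus spanned 0.34 and HFD arrays 0.02. For the 7 other genes the mean ran from 7.23 to 7.54 in NCD and from 7.30 to 7.49 in HFD. These means restate the values of single genes, chosen with earlier results of these data known. The contrast between the enzymes and the 7 other genes was not tested.

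**Figure D4:**
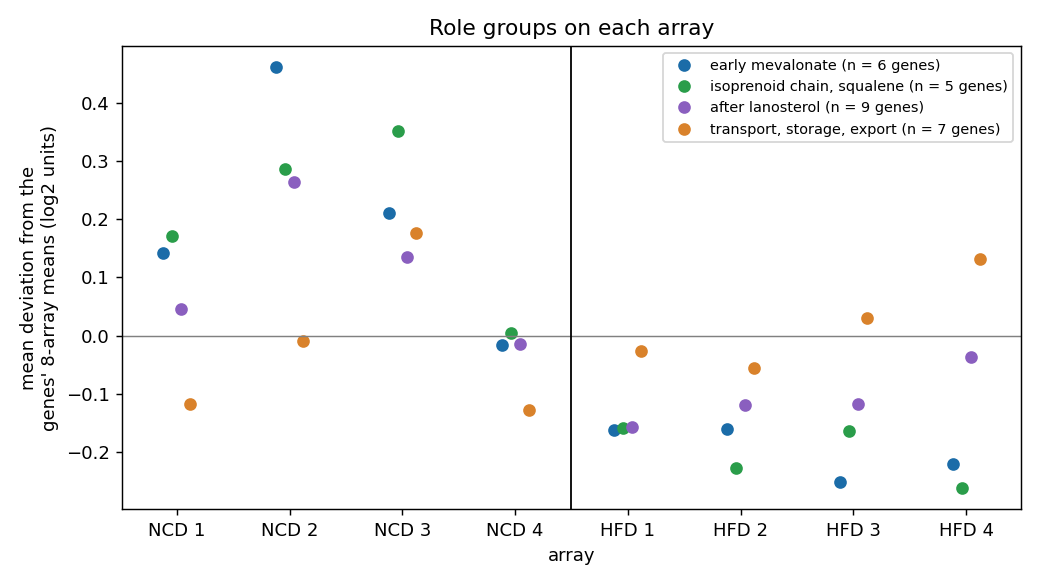
Mean deviation of each role group from its genes' 8-array means (log2 units, vertical axis) on each array (horizontal axis), 1 point per group. Early mevalonate enzymes range from -0.02 (NCD 4) to 0.46 (NCD 2) on NCD arrays and from -0.25 to -0.16 on HFD arrays; the transport group is highest on NCD 3 (0.18) and HFD 4 (0.13).

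Of the markers of fat and other cells, only Elovl3 passed the threshold, a fatty acid elongase of brown adipocytes, and the part of cell makeup in the results was not tested. In whole tissue, fewer cells of a type and less RNA per cell cannot be told apart. Brown adipocyte markers had a 7-gene mean of 9.33 to 9.70 in NCD and 9.09 to 9.28 in HFD, without overlap, and 6 of the 7 had lower HFD means. Elovl3 differed by -1.385 and the median over the 7 was -0.1275; without Elovl3 the 6-gene mean overlapped, from 9.73 to 10.05 in NCD and from 9.65 to 9.79 in HFD. White adipocyte markers had a 3-gene mean of 7.32 to 7.88 in NCD and 7.91 to 8.14 in HFD, again without overlap and with 0 of 3 past the threshold. Of these 3, Lep differed by 0.90, Nnat by 0.43 and Retn by -0.24, and without Lep the mean of the other two overlapped, from 6.985 to 7.145 in NCD and from 7.025 to 7.385 in HFD. General adipocyte markers had a 5-gene mean of 10.22 to 10.47 in NCD and 10.32 to 10.37 in HFD. Macrophage markers ran from 6.68 to 7.16 in NCD and from 6.78 to 7.30 in HFD (0 of 8 past the threshold, 7 with higher means), fibroblast and progenitor markers from 8.65 to 8.97 and from 8.90 to 9.17 (0 of 5), and endothelial markers from 8.56 to 8.91 and from 8.68 to 8.996 (0 of 5). Leaving out NCD 1 and HFD 3, on which muscle markers were high, the median over the 27 genes was -0.27 and 22 had lower means.

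Of 61 further genes of sterol sensing, isoprenoid use, uptake and oxysterol handling, 0 passed the threshold in either direction. The median difference was -0.02 with 38 of 61 lower, and without NCD 2 and NCD 3 it had the other sign, 0.0775, with 18 of 61 lower. At an unadjusted p under 0.05 there were 6 lower and 5 higher, against 4.52% and 2.73% of all genes. Insig1, which holds the SREBP complex in the endoplasmic reticulum and is itself induced by SREBP, read 10.77, 11.32, 10.94 and 10.52 in NCD and 9.86, 9.93, 10.19 and 10.35 in HFD. Like Nsdhl it showed no overlap, and its difference was -0.805 ± 0.16 (SE, adjusted p = 0.0817). Insig2, its relative, read 8.10, 8.26, 8.37 and 8.02 in NCD and 7.68, 7.86, 7.87 and 7.92 in HFD, also without overlap (difference -0.355 ± 0.12, SE, adjusted p = 0.470). The differences were -0.56 for Insig1 and -0.23 for Insig2 without NCD 2 and NCD 3.

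The transcription factors themselves differed less. Srebf2, the SREBP gene best known for cholesterol synthesis, differed by -0.10 ± 0.11 (SE, adjusted p = 0.884) and Srebf1 by -0.145 ± 0.11 (SE, adjusted p = 0.844). Scap, the escort of SREBP proteins, differed by 0.05, and the liver X receptor genes Nr1h2 and Nr1h3 by -0.04 and 0.115 (adjusted p = 0.975 and 0.869). In the fit lacking NCD 2 and NCD 3, Srebf2 differed by -0.06, Nr1h2 by 0.03 and Nr1h3 by 0.20. Nr1h3 had both means (6.28 in NCD and 6.40 in HFD) under 6.46, the 95th percentile of olfactory receptor genes described below. Srebf2 had its HFD mean (6.36) under that level. The sizes of the differences of Nr1h3 and Srebf2 are uncertain for that reason.

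The other related genes with an unadjusted p under 0.05 had varied roles. Lower in HFD were Pdss2, a subunit of the prenyl transferase for coenzyme Q, at -0.38, Tecr, an enoyl reductase of very long fatty acids, at -0.35, Fnta, a subunit of protein farnesyl transferase, at -0.335, and Gramd1c, of a family of membrane sterol carriers, at -0.27 (adjusted p from 0.412 to 0.67). Higher were Gramd1b of the same family at 0.47, Nr1d1, a repressor of the circadian clock, at 0.465, Lrp1, a lipoprotein receptor, at 0.335, Nceh1, which hydrolyses cholesteryl esters, at 0.33, and Apoa1, the apolipoprotein of high-density lipoproteins, at 0.305 (adjusted p from 0.522 to 0.671). Pdss2 and Tecr did not overlap between the diets in the lower direction, nor Nceh1 and Apoa1 in the higher one, where 2.5% of all genes did not overlap as lower and 1.33% as higher. Pdss2 differed by -0.235, Fnta by -0.13 and Nr1d1 by 0.725 without NCD 2 and NCD 3. Pdss2, Gramd1c, Nceh1 and Apoa1 had both means under 6.46, the 95th percentile of olfactory receptor genes described below, so the sizes of their differences are uncertain.

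In the authors' deposited table, 11 of the 27 genes had a p of at most 0.05, of which 10 had a fold below the NCD level, against 3.96% of all genes, and 1, Mylip, above it, against 2.39%. These p-values are given to 2 decimals, and 2 of the 11, Mvd and Sqle, stand at 0.05. The authors' deposited table gives signed folds of -1.76 for Idi1, -1.67 for Nsdhl, -1.56 for Sc5d and 1.47 for Mylip.

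Low signal limits several of these values. Olfactory receptor genes, 1119 in number, are little expressed outside the nose, and were taken as a floor once values were known; their 95th percentile was 6.46. Both group means lay under it for 11 of the 27 genes (Mvk, Pmvk, Mvd, Lss, Tm7sf2, Lbr, Sc4mol, Ebp, Stard4, Abcg1 and Soat1), and the HFD mean alone for Idi1, Sqle and Cyp51. The sizes of their differences are uncertain for that reason. The dimmer Idi1 row, on chromosome 13, had both means under the same percentile. Nsdhl, Sc5d, Fdps, Fdft1, Hmgcs1, Npc2 and Mylip had both means above it, as did Acat2, Ggps1, Hsd17b7, Dhcr7, Npc1 and Abca1.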

How the data were processed

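The authors used Affymetrix Power Tools, per the submitters' processing notes (no version), for log transformation and quantile normalization, per the design text. The deposited log2 intensities have 2 decimals; the sources used here do not give the summarization, background correction, build or annotation. Per the file headers, the deposited table also holds a p-value and a signed fold (unit score) for diet; Student's t-test is the test given in the design text, without further detail. The 2 deposited tables held identical log2 values for 25254 rows, from which the brightest row per symbol gave 21759 genes.

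HFD was compared with NCD with limma 3.58.1 in R 4.3.3 (lmFit, eBayes, two-sided), fitted and Benjamini-Hochberg adjusted over all genes, with a threshold of 0.05. SE is moderated. The fit was tested on simulated data with noise drawn independently for each gene and array. The simulation held no array-wide differences, such as wide spread or high muscle markers, so it cannot show their effect. Precision is limited by the number of arrays, 4 per diet. RefSeq accessions (GRCm38.p6) matched all 27 genes, and 25 had the file's chromosome; exceptions were Idi1 and Hmgcs1 (13_random). Promoters came from the same release.

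Genes and lists were chosen with earlier results of these data known. Full values were given for the 12 genes of smallest p and for Hmgcs1, Sqle, Npc1, Abca1, Abcg1, Soat1 and Mylip, with Ebp chosen after its values were seen. Related genes were named at an unadjusted p under 0.05, or as sterol sensors or receptors. Some genes of the pathway are not reported here. Alternatives were other tests, normalizations, filters and arrays left out.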

Additional observations from a re-analysis of the deposited data

Results flagged for a closer look

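Of 54 sets of 4 arrays (27 genes in each diet), 1 held an array far from the others. Lss, the lanosterol synthase gene, read 5.81 on NCD 4, while the other 3 NCD arrays read 6.50 to 6.52, so that the gap made up 0.972 of the group's range. Chance marks about 1 in 20 such sets.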

How the results depend on the processing

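Over 20 alternatives the median of the 27 genes kept its sign, from -0.28 to -0.1375, the latter without NCD 2 and NCD 3. Genes of the 27 past the threshold, all lower, numbered 3 with a variance trend and robust prior (Nsdhl, Idi1, Sc5d), 2 with a filter on dim genes (Nsdhl, Idi1), 1 each (Nsdhl) with array weights, quantile normalization again, cyclic loess and without NCD 1 and HFD 3, and 0 to 3 when arrays were left out singly (3 without NCD 4, namely Pmvk, Idi1 and Nsdhl, and 1 without HFD 3, Nsdhl). No alternative called any of the 27 higher. Over all genes, 29 were lower and 2 higher; these became 60 and 10 with the trend and robust prior, 0 and 0 with the methods' t-test (1514 at an unadjusted p under 0.05, 13 of them among the 27), 2 and 1 without NCD 2 and NCD 3, and from 19 to 36 and from 1 to 5 with single arrays left out. Genes called higher were also 4 with quantile normalization again, 8 with cyclic loess, 1 with equal medians and 1 with the mean of a gene's rows. With the replicate number as a block, 32 were lower and 4 higher and 0 of the 27 passed. Deviations of same-numbered arrays correlated between -0.165 and 0.0025 over all genes. That cannot show whether the numbers pair arrays, because other differences between arrays, such as muscle marker levels, enter the same correlations. Small differences changed sign. With single arrays left out, Soat1 (0.015) ran from -0.0717 to 0.0817 (below 0 without NCD 1, NCD 2 or HFD 1), Stard4 (-0.055) from -0.1517 to 0.0083 (above 0 without NCD 2) and Mvk (0.0675) from -0.0683 (without NCD 3) to 0.195. Without NCD 2 and NCD 3, Soat1 was -0.02 and Stard4 0.115, and without NCD 1 and HFD 3, Soat1 was -0.0167. The causes were not tested, other than that fits with fewer arrays have less power and that the dim filter tests 10877 genes.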
